A study of Mus musculus with 9 samples.

Results

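The genes described here are 10 enzymes of cholesterol synthesis, Hmgcs1, Mvd, Fdps, Fdft1, Sqle, Lss, Cyp51, Tm7sf2, Nsdhl and Dhcr7, given in the order in which they act. They are 10 of 22180 genes tested, and each was found as the row of the array table that carries that gene symbol and no other. All 10 have a single such probe set, so no choice between probe sets was needed. Liver RNA came from 9 euthyroid female mice aged 7 to 9 weeks on a mixed 129SV/B6 background, 3 mice in each group, with 1 array per mouse. Control mice carried floxed alleles of both corepressor genes (SMRT and NCoR fl/fl) with no deletion. The deletions were liver specific: SMRT alone was removed in the SMRT KO group, and both corepressors were removed in the double KO group (SMRT and NCoR KO). The promoter that drove the deletion and the NCoR alleles of the SMRT KO mice are not given in the sources used here, no group lacked NCoR alone, and the deletions themselves were not analysed here.

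Liver cells make cholesterol from acetyl-CoA. The early enzymes build mevalonate and turn it into isoprenoid units, the middle enzymes join these into squalene and close it into lanosterol, and the late enzymes trim and reduce lanosterol to cholesterol. The genes of the pathway are known as shared targets of SREBP2, a transcription factor that the escort protein SCAP carries out of the endoplasmic reticulum when sterols are scarce and that INSIG proteins hold back when sterols are plentiful. SMRT and NCoR are corepressors that nuclear receptors, among them the thyroid hormone receptors and the oxysterol receptors LXR, recruit to keep target genes low. The study addressed what each corepressor does in thyroid hormone signalling in the liver.

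The promoters are shown first because the 10 genes are known as a group under common control. RefSeq promoter sequence (GRCm38.p6) was matched for 7 of the 10 genes, Hmgcs1, Mvd, Lss, Cyp51, Tm7sf2, Nsdhl and Dhcr7, in 9 windows that run from 250 bases before to 50 bases after an annotated start. In the sequences printed here, capitals mark a sterol regulatory element core (TCACNCCAC) or a CCAAT box (CCAAT, or ATTGG where it lies on the other strand), and each sequence reads along the gene's own strand and ends before the start. The upstream sequence of Hmgcs1, the first of the 10 genes to act, lies at chr13:119690101-119690350 (plus strand). It was the only member promoter with the sterol regulatory element core, 137 bases before the start.
Hmgcs1: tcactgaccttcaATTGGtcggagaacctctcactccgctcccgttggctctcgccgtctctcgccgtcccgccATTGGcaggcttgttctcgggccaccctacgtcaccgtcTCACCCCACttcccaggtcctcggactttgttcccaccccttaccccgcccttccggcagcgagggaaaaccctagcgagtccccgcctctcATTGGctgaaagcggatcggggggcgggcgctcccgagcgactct
The upstream sequence of Tm7sf2, the member with the clearest difference between groups, lies at chr19:6067851-6068100 (minus strand) and holds 1 CCAAT box, 47 bases before the start.
Tm7sf2: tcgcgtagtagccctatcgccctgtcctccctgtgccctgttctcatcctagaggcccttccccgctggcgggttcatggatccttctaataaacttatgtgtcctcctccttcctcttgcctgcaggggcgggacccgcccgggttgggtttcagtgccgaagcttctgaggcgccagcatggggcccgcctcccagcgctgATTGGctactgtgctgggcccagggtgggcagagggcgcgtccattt

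The CCAAT box was found in each of the other member promoters too. Of the copies before the start, the one nearest to it is shown for each of them with its flanks. It lay 27 bases before the start in Mvd (chr8:122443435-122443459, minus strand), 62 in Lss (chr10:76531533-76531557, plus strand), 29 in Cyp51 (chr5:4104712-4104736, minus strand), 20 in Nsdhl (chrX:72918491-72918515, plus strand) and 49 in Dhcr7 (chr7:143830155-143830179, plus strand).
Mvd: ggccagcgggCCAATcatatggcag
Lss: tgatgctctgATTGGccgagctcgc
Cyp51: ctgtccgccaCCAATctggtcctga
Nsdhl: gactagcctcATTGGgcaaaatcat
Dhcr7: tccacttccgATTGGtcgtctgtga
All 7 genes held at least 1 CCAAT box, which 37.4% of the 32851 promoter windows in the table hold. All 7 also held a GC box (GGGCGG), which stands in 35.7% of windows. The sterol regulatory element core stands in 1.24% of windows. The nuclear receptor core motif AGGTCA was in Hmgcs1 and Dhcr7 only, against 16.3% of windows. All 4 motifs were searched on both strands. The copy of TCACNCCAC printed for Hmgcs1 overlaps no CCAAT box. Of 10 other enzymes of the pathway with a promoter in the table, 9 held a CCAAT box, 8 a GC box and 0 either of the other motifs. A match is only a match of letters. The counts are of genes and the shares are of windows, and Dhcr7, with 3 windows, has more chances of a match. It has its CCAAT boxes in 1 of the 3 windows and AGGTCA in all 3.

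No difference in the 10 enzymes between SMRT KO and control livers passed the test. All 10 had a mean slightly below control, by 0.029 (Lss) to 0.28 (Sqle) on the log2 scale, with a median log2 fold change of -0.10 against a median of 0.00087 over all genes. In limma, 0 of the 10 passed an adjusted p of 0.05 (Benjamini-Hochberg over all 22180 genes), 0 had an unadjusted p under 0.05, and their adjusted p ran from 0.93 to 0.99. The background for this comparison is 0.00451% of genes called (1 gene) and 8.16% of genes whose group values did not overlap, and 0 of the 10 members were free of overlap. Over all 22180 genes, 1331 had an unadjusted p under 0.05. The standard errors of these fold changes were 0.10 to 0.26, so changes of the size of those means were not detectable with 3 livers a group. Its size depended on single mice: leaving out control replicate 1 gave a median of -0.29, control replicate 2 -0.051, control replicate 3 -0.018 and SMRT KO replicate 2 -0.17.

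Sqle, squalene epoxidase, a rate-controlling step after squalene, had the widest spread of the 10. Its log2 values were 9.65, 10.30 and 10.29 in the control livers, 10.05, 10.11 and 9.24 in the SMRT KO livers, and 9.82, 10.43 and 10.06 in the double KO livers. The low mean of the SMRT KO group came from replicate 3, and the 3 groups overlapped. Its log2 fold change in SMRT KO against control was -0.28 (standard error 0.26, 95% interval -0.87 to 0.31, adjusted p = 0.93, limma), and without SMRT KO replicate 3 it was 0.00042.

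Double KO livers had slightly higher means than control livers for 9 of the 10 enzymes, and Cyp51, the lanosterol demethylase, lay at -0.0095. The median log2 fold change was 0.15 against 0.0036 over all genes. None of the 10 passed limma's test over all genes, 1 had an unadjusted p under 0.05, and adjusted p ran from 0.057 (Tm7sf2) to 0.995 (Cyp51). The background is 0.843% of genes called, 187 in all, of which those higher are 0.523% of genes. Over all 22180 genes, 2389 had an unadjusted p under 0.05. Values did not overlap between these groups for 1 of the 10 members (Tm7sf2), against 15% of all genes. The median was -0.0058 without control replicate 1 and 0.006 without double KO replicate 2, and it was 0.28 without control replicate 3, 0.27 without double KO replicate 1 and 0.085 with array weights. With cyclic loess, an intensity trend or the dim genes left out, and without double KO replicate 1, the count was 1 instead of 0, and the gene was Tm7sf2.

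Between the knockouts, all 10 enzymes had a higher mean in double KO than in SMRT KO livers, where 50.6% of all genes did. The median log2 fold change was 0.27 (range 0.097 for Cyp51 to 0.62 for Tm7sf2), against 0.0017 over all genes. Tm7sf2 was the 1 member that passed limma's test, and 3 of the 10 had an unadjusted p under 0.05 (Tm7sf2, Mvd and Nsdhl). The background is 1.19% of genes called, and 0.748% called and higher. Over all 22180 genes, 2323 had an unadjusted p under 0.05. Such counts over all genes, given for each comparison, are also the background for the lists below. Values of these groups did not overlap for 2 members, Tm7sf2 and Nsdhl, both higher in double KO livers, against 13.8% of all genes and 7.54% separated in that direction. The median was 0.089 without double KO replicate 2 and 0.41 without double KO replicate 1. This comparison and that of double KO with control use the same double KO livers, so they are not separate evidence.

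**Figure D1:**
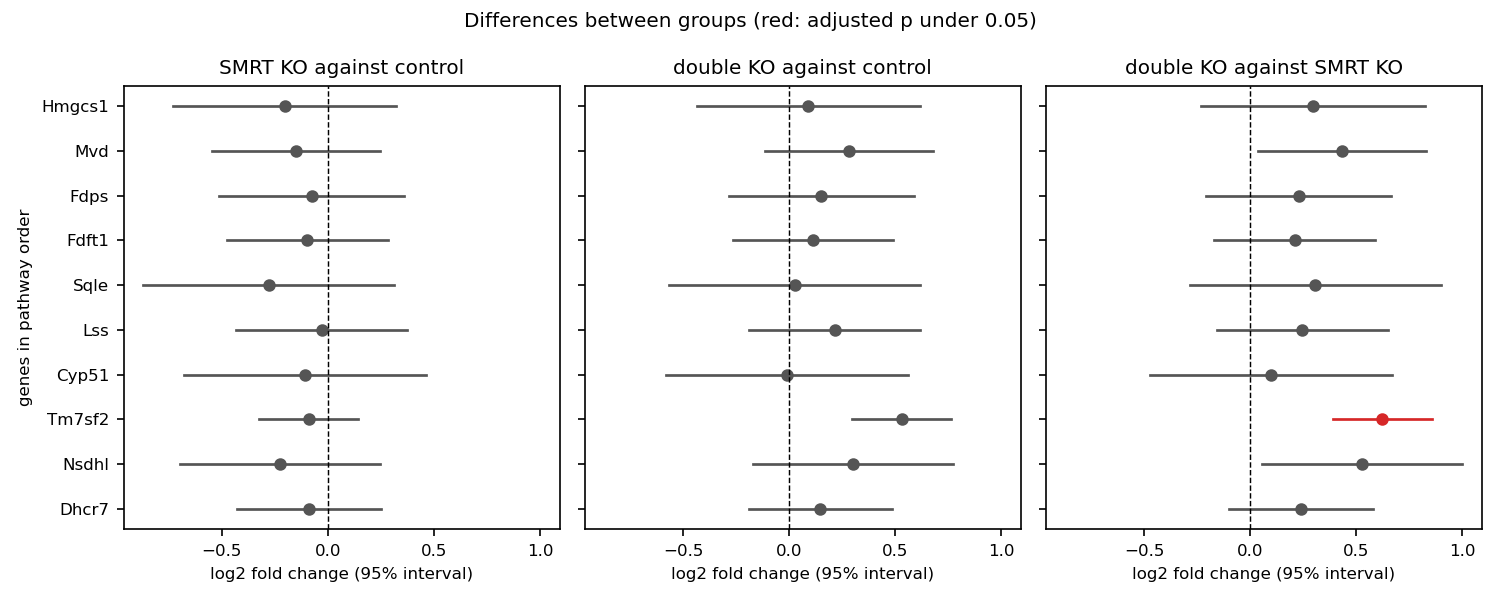
Log2 fold change of each of the 10 genes (rows, in pathway order) with its 95% interval from limma, for the 3 comparisons of the groups. Red marks an adjusted p under 0.05, which only Tm7sf2 in double KO against SMRT KO livers reached (log2 fold change 0.62), and the intervals of 9 of the 10 genes span 0 in double KO against control livers.

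Hmgcs1, the cytosolic synthase that makes HMG-CoA, had log2 values of 11.45, 12.01 and 12.00 in control, 11.96, 11.54 and 11.35 in SMRT KO and 11.61, 12.37 and 11.76 in double KO livers. The highest value was in double KO replicate 2 and the lowest in SMRT KO replicate 3, with full overlap of the groups. Against control its log2 fold change was -0.20 in SMRT KO (95% interval -0.73 to 0.32, adjusted p = 0.94) and 0.091 in double KO livers (-0.44 to 0.62, adjusted p = 0.94).

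Mvd, which removes carbon dioxide from mevalonate diphosphate to give the first isoprenoid unit, had 7.64, 8.20 and 7.88 in control, 7.61, 8.05 and 7.61 in SMRT KO and 8.14, 8.44 and 7.99 in double KO livers. Double KO replicate 2 was again the highest, while SMRT KO replicate 2 lay above double KO replicate 3. Its log2 fold change in double KO against SMRT KO livers was 0.43 (standard error 0.18, 95% interval 0.037 to 0.83) and did not pass (adjusted p = 0.42, limma).

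Fdps, which condenses the units into farnesyl diphosphate, and Fdft1, squalene synthase, the first enzyme committed to sterols, stood next in the pathway. Fdps ranged from 10.68 (control replicate 1) to 11.56 (double KO replicate 2), and Fdft1 from 11.17 to 11.88 in the same livers. Their log2 fold changes were 0.15 (standard error 0.19) and 0.11 (standard error 0.17) in double KO against control, and -0.076 and -0.097 in SMRT KO against control. For both genes each pair of groups overlapped.

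Lss, which closes the epoxide into lanosterol, ranged from 8.44 in control replicate 1 to 9.33 in double KO replicate 2, and its double KO mean lay 0.22 above the control mean on the log2 scale (standard error 0.18, adjusted p = 0.75). Cyp51 had 9.81, 10.43 and 10.51 in control, 10.49, 10.27 and 9.66 in SMRT KO, and 10.07, 10.60 and 10.03 in double KO livers. The group means of Cyp51 were the closest of the 10 genes, and groups accounted for 2.33% of its variance over the 9 livers. Its 95% interval in double KO against control, ran from -0.58 to 0.56.

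Tm7sf2 was the exception among the 10. It encodes a sterol reductase that acts just after Cyp51 on the double bond that enzyme leaves. Its log2 values were 10.14, 10.32 and 10.40 in control, 10.16, 10.25 and 10.18 in SMRT KO, and 10.60, 10.91 and 10.95 in double KO livers. Every double KO liver lay above every other liver, and the control and SMRT KO values overlapped. Means were 10.3 ± 0.13 in control, 10.2 ± 0.050 in SMRT KO and 10.8 ± 0.19 in double KO livers (SD, n = 3 each).

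In double KO against SMRT KO livers Tm7sf2 rose 1.54-fold (log2 fold change 0.62, standard error 0.10, 95% interval 0.39 to 0.86, adjusted p = 0.0243, limma). Against control it was 1.45-fold higher and did not pass (log2 fold change 0.53, 95% interval 0.30 to 0.77, adjusted p = 0.0574, in a range of 0.0306 to 0.226 over 17 alternatives). In SMRT KO against control livers it had -0.09 (adjusted p = 0.943). The call against SMRT KO livers was lost without SMRT KO replicates 1, 2 and 3 (adjusted p = 0.0959, 0.0571 and 0.0781), without double KO replicates 2 and 3 (0.113 and 0.0943) and when the fit held just those 2 groups (0.0667), and the log2 fold change stayed between 0.56 and 0.73. In the RefSeq gene table Tm7sf2 overlaps Vps51, which was not analysed here. The next gene, Znhit2, had a log2 fold change of 0.095 in the same comparison (adjusted p = 0.73).

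Nsdhl, a dehydrogenase in the removal of methyl groups from the sterol ring, came closest to that pattern. It had 10.77, 11.23 and 11.61 in control, 11.22, 11.01 and 10.71 in SMRT KO, and 11.28, 11.71 and 11.52 in double KO livers. All 3 double KO values lay above all 3 SMRT KO values, but control replicate 3 lay above 2 of the 3 double KO livers. The log2 fold change in double KO against SMRT KO was 0.53 (standard error 0.21, 95% interval 0.054 to 0.999) and did not pass (adjusted p = 0.41, limma). Dhcr7, the reductase of the last step of one branch, ranged from 8.96 to 9.60, the highest again in double KO replicate 2, and its mean in double KO livers was 0.24 above that in SMRT KO livers (log2, standard error 0.15, adjusted p = 0.67).

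**Figure D2:**
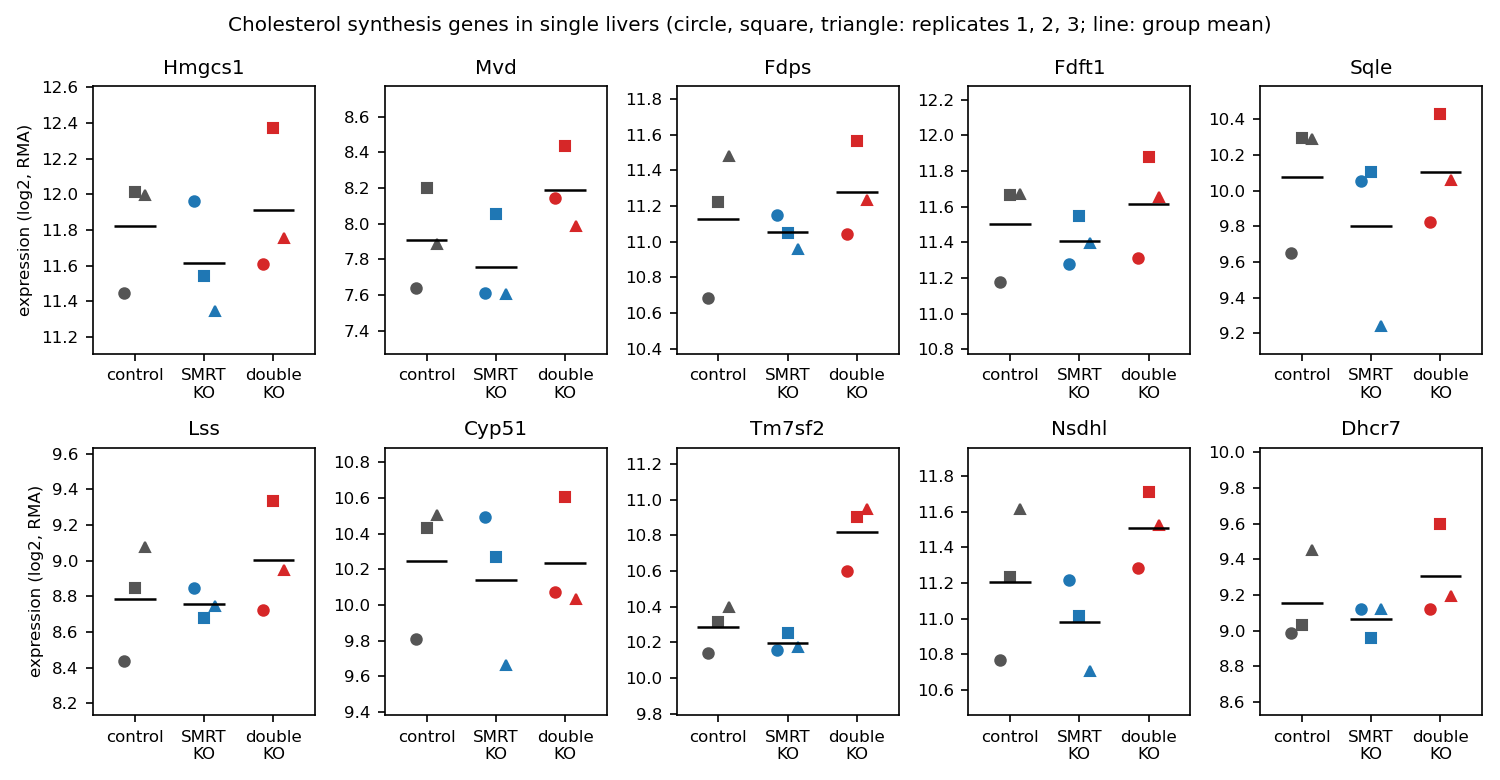
Log2 expression (RMA) of each of the 10 genes in each liver, by group, with circles, squares and triangles for replicates 1, 2 and 3 and a line at the group mean; every panel spans 1.5 log2 units. Tm7sf2 is the 1 gene whose 3 double KO livers (10.60 to 10.95) lie above all 6 others, while double KO replicate 2 is the highest liver for the other 9 genes.

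Mice of the same group differed widely in most of these genes. For each liver, a pathway level was taken as the mean over the 10 genes of the log2 value minus that gene's mean over the 9 livers. It was -0.36, 0.097 and 0.21 in control replicates 1 to 3, -0.04, -0.082 and -0.33 in SMRT KO replicates 1 to 3, and -0.055, 0.45 and 0.11 in double KO replicates 1 to 3. The range within a group was thus 0.56 in control, 0.29 in SMRT KO and 0.51 in double KO livers, or 1.48-fold, 1.23-fold and 1.42-fold. Group means were -0.017 ± 0.30 in control, -0.15 ± 0.16 in SMRT KO and 0.17 ± 0.26 in double KO livers (SD, n = 3 each), so any pair of group means differed by less than the range within the control or the double KO group. No test was made of this level, since the 10 genes share their livers and are not replicates.

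The 10 genes moved together in the control and double KO groups. Control replicate 1 was the lowest of the 3 controls for 10 of 10 genes, as for 38.2% of all genes, and control replicate 3 the highest for 7. Double KO replicate 2 was the highest of its group for 9 of 10 genes, as for 30.5% of all genes, and the highest of all 9 livers for the same count of 9. Tm7sf2 was the exception, highest in double KO replicate 3. The SMRT KO livers were less alike in order. Replicate 3 was the lowest of its group for 6 genes, and replicates 1 and 2 were the highest for 5 and 4.

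**Figure D3:**
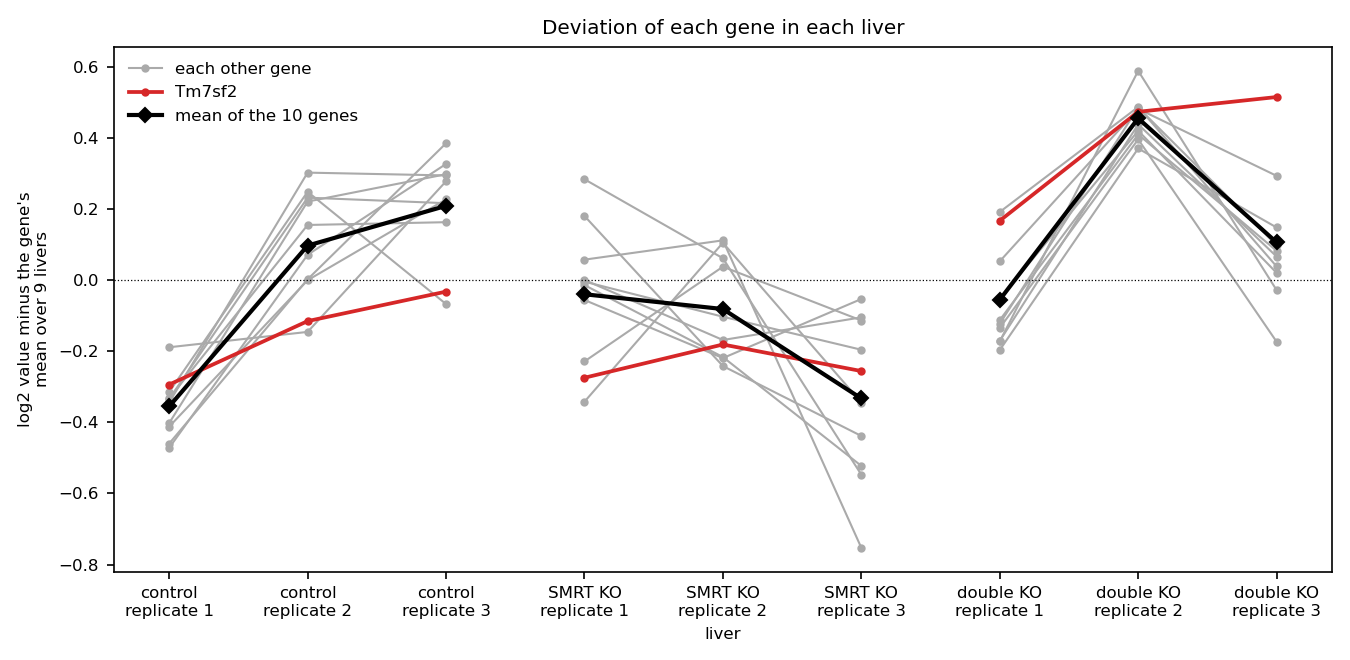
Deviation of each gene from its own mean over the 9 livers (log2), for each liver; grey lines are 9 genes, the red line is Tm7sf2 and the black line with diamonds is the mean of the 10 genes. In the control and double KO groups the grey lines run side by side, with control replicate 1 at -0.36 and double KO replicate 2 at 0.45 on the mean. Tm7sf2 lies 0.25, 0.02 and 0.45 above the mean of the other 9 genes in double KO replicates 1 to 3.

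Variation between mice within a group was wide for the 9 genes other than Tm7sf2. Their within-group SD (log2, pooled over the groups) ran from 0.22 for Dhcr7 to 0.39 for Sqle, where the median of all genes was 0.12 and 88.8% of genes lay below the SD of Dhcr7. Tm7sf2 had 0.14. Groups accounted for 85.7% of the variance of Tm7sf2 over the 9 livers, and for 2.33% (Cyp51) to 42.2% (Mvd) of that of the other 9 genes, against a median of 25.7% over all genes. When the mean of the other 9 genes was subtracted in each liver, Tm7sf2 lay at 0.25, 0.02 and 0.45 in the double KO livers, -0.27 to 0.068 in control and -0.26 to 0.086 in SMRT KO livers, around its mean over all livers. On this measure double KO replicate 2 fell within the range of the other groups, and the other 2 double KO livers stayed above it.

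**Figure D4:**
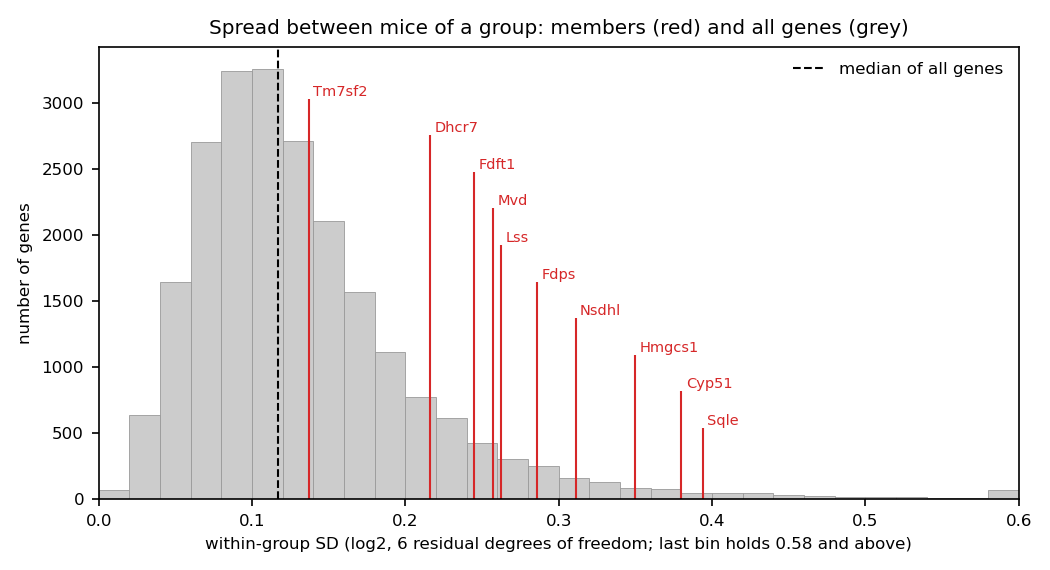
Histogram of the within-group SD (log2) of all 22180 genes, with the median of all genes (0.12) as a dashed line and red lines at the 10 members. Tm7sf2 (0.14) lies near that median, and the other members lie in the right tail, from 0.22 (Dhcr7) to 0.39 (Sqle).

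The same 2 mice stood out in the other enzymes of the pathway. Of 12 listed, 8 were measured here, namely the mevalonate kinases Mvk and Pmvk, Ggps1 of the branch to longer isoprenoids, and Msmo1, Hsd17b7, Ebp, Sc5d and Lbr of the late steps; Idi1 was not analysed here. Control replicate 1 was the lowest control for 8 of 8, and double KO replicate 2 the highest of its group for 7. In limma 0 of the 8 passed in any comparison. At an unadjusted p under 0.05 there was 1 in SMRT KO against control (Ggps1), 0 in double KO against control and 1 in double KO against SMRT KO (Pmvk). Msmo1, which oxidises the same methyl groups as Nsdhl acts on, had 10.06, 10.49 and 10.51 in control, 10.18, 10.20 and 9.98 in SMRT KO and 10.05, 10.65 and 10.10 in double KO livers, close to the order of the members. Lbr, which can carry out the same reduction as Tm7sf2, had 7.79, 7.91 and 7.91 in control, 7.87, 8.12 and 7.85 in SMRT KO and 7.93, 8.06 and 7.79 in double KO livers. Its double KO mean differed from the SMRT KO mean by -0.019 (log2, 95% interval -0.23 to 0.20, adjusted p = 0.97) and from the control mean by 0.054 (adjusted p = 0.90).

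Among genes that sense and take up sterols, Insig2 was the 1 that passed. Of 13 listed, 11 were measured; 1 rose and 0 fell in each comparison that involves double KO livers (2 at an unadjusted p under 0.05 in each), and 0 of 11 passed in SMRT KO against control, where 1 had an unadjusted p under 0.05 (Npc1, which moves cholesterol out of lysosomes). Srebf2, the gene of SREBP2 itself, differed by -0.058 between double KO and control livers (log2, 95% interval -0.29 to 0.17, adjusted p = 0.90). Insig1, a retention protein and a target of the pathway, differed by 0.12 (95% interval -0.11 to 0.36, adjusted p = 0.76). Insig2, its relative, had 9.37, 9.82 and 9.65 in control, 9.93, 9.46 and 9.70 in SMRT KO, and 10.47, 10.42 and 10.58 in double KO livers, with no overlap between double KO livers and the rest. It rose 1.84-fold against control (log2 fold change 0.88, adjusted p = 0.0225, limma), and 1.74-fold against SMRT KO livers (adjusted p = 0.0289). Against control the call held in 11 of 17 alternatives, and among the losses were the fits without control replicate 1 or 3 and without any 1 of the double KO mice (highest adjusted p 0.092). Against SMRT KO it held in 9 of 17, and among the losses were the fit of 2 groups and those without control replicate 3, SMRT KO replicate 2 or 3, or any 1 of the double KO mice (highest adjusted p 0.115).

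Among genes that use or export cholesterol, Abcg5 was the 1 that passed. Of 8 genes of use and export listed, 6 were measured and 1 rose, in double KO against control and against SMRT KO alike (4 at an unadjusted p under 0.05 in each, of which Cyp8b1 alone was lower, against control), with 0 passing in SMRT KO against control (0 at an unadjusted p under 0.05). Abcg5, which with Abcg8 pumps sterols into bile, had 10.86, 10.59 and 10.87 in control, 10.91, 10.80 and 10.75 in SMRT KO and 11.23, 11.36 and 11.38 in double KO livers, without overlap. It rose 1.47-fold against control (adjusted p = 0.0263) and 1.42-fold against SMRT KO livers (adjusted p = 0.0343). The calls held in 10 and 9 of 17 alternatives. Both were lost, among other fits, without control replicate 3 and without any 1 of the double KO mice, the call against control also with 2 groups in the fit and without control replicate 1 (highest adjusted p 0.127), and that against SMRT KO also without any 1 of the SMRT KO mice (highest 0.141). Abcg8 had a log2 fold change of 0.46 (adjusted p = 0.099), also with no overlap, and Cyp7a1, which starts bile acid synthesis, had 0.30 with a standard error of 0.34 (adjusted p = 0.83). Cyp8b1, which makes cholic acid, had 9.17, 10.39 and 9.56 in control, 9.09, 8.23 and 8.96 in SMRT KO and 7.39, 9.10 and 9.04 in double KO livers. All its SMRT KO and double KO values lay below all its control values. Its log2 fold change against control was -0.95 in SMRT KO (adjusted p = 0.85) and -1.20 in double KO livers (adjusted p = 0.39). Neither passed limma's test, with a standard error of 0.47 for each. Of 5 measured genes of the mevalonate branches to dolichol, ubiquinone and prenylation, 0 passed in any of the 3 comparisons, and 0 had an unadjusted p under 0.05. In all, 2 of the 30 other genes measured rose against control, where 0.523% of all genes did, and 2 against SMRT KO livers, where 0.748% did.

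The genes whose 9 values were most like the pathway level, among 11080 genes brighter than the median gene and outside the 10, were Nbeal1 (Pearson r = 0.93, n = 9 livers), Ncoa6 (0.91), 2700012I20Rik (0.90), Nudcd1 (0.89), Pomgnt2 (0.89), Add3 (0.88), Hif1a (0.88) and Ccser2 (0.87). After group means were subtracted they were Dnajc8 (0.96), Msmo1 (0.96), Nbeal1 (0.96), Nptn (0.95), Cd300lg (0.94), Mthfsd (0.93), Map4k5 (0.93) and Bik (0.92). Msmo1 thus ranked 2 of 11080 by its variation within groups, and 16 with the groups left in. By rank (Spearman), 2700012I20Rik had 0.69 and Ccser2 0.60 with the groups left in, and the other genes named had 0.82 to 0.97. The Pearson coefficients are the highest of many. Both kinds share the same 9 arrays and carry no test. Srebf2 had a Pearson r of 0.44 with the groups left in.

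Other features of the livers were set beside these values. Arrays of the same group correlated at 0.987 to 0.992 over all probe sets and arrays of different groups at 0.983 to 0.989. The mean of 6 hepatocyte markers was 12.58 to 12.70 in control, 12.54 to 12.62 in SMRT KO and 12.46 to 12.47 in double KO livers. The double KO values thus lay below all others, with Alb between 13.89 and 13.98. At an unadjusted p under 0.05, 2 of the 6 (Serpina1a and Ttr) were lower in each comparison with double KO livers. In SMRT KO against control 0 of the 6 were. Of the marker lists of 10 cell types, 9 had measured members, and those called in double KO livers were Serpina1a of the hepatocyte list (log2 fold change -0.47 against control) and Lrat of the stellate list (-1.80 against control and -1.91 against SMRT KO). The stellate mean, over 6 markers, was 8.28 to 8.64 in double KO and 8.65 to 8.89 in the other livers. Its members did not move together. In double KO against control livers Rgs5 (-0.77), Des (-0.19) and Dcn (-0.13) were lower beside Lrat, while Col1a1 (0.28) and Col3a1 (0.31) were higher. The mean of 7 Kupffer cell markers was 8.55 to 8.75 in control, 8.76 to 9.00 in SMRT KO and 8.54 to 8.72 in double KO livers. In limma 0 of the 7 passed, and at an unadjusted p under 0.05 there were 4 higher in SMRT KO than in control livers and 4 lower in double KO than in SMRT KO livers (Adgre1, C1qa, C1qb and Vsig4, -0.48 to -0.32). In bulk liver, fewer cells of a type and less RNA per cell cannot be told apart. The part of these markers in the Tm7sf2 result was not tested.

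Time of day and feeding are known to move cholesterol synthesis in the liver. The labels give free access to food and a light cycle of 12 hours, but no hour of collection. Of 12 clock genes listed, 11 were measured. Against control 0 passed limma's test (0 in SMRT KO and 3 in double KO livers at an unadjusted p under 0.05). In double KO against SMRT KO livers 3 had an unadjusted p under 0.05. Of these Per1 passed and was lower in double KO livers (log2 fold change -0.78, adjusted p = 0.0277, limma). Per1 was also lower in double KO than in control livers, without overlap, but did not pass (-0.64, adjusted p = 0.0763, limma). The clock gene Ciart had 9.76, 8.19 and 9.45 in control, 9.44, 9.04 and 8.69 in SMRT KO and 8.83, 8.95 and 9.06 in double KO livers. Control replicate 2 was the lowest control on it. Arntl, which drives the clock, had 6.07, 6.77 and 6.31 in control, 6.38, 6.23 and 6.75 in SMRT KO and 6.98, 7.10 and 6.75 in double KO livers. On Arntl, as on the pathway level, control replicate 1 was the lowest control and double KO replicate 2 the highest of its group. Over the 11 clock genes, control replicate 1 was the lowest control for 3 and the highest for 4. Control replicate 2 was the lowest for 7 and the highest for 3. Double KO replicate 2 was the highest of its group for 5 and the lowest for 2. Double KO replicate 1 was the lowest of its group for 8 of the 11 and the highest for 0. Among the 10 members, that liver was also the lowest of its group for 8 and the highest for 0.

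Of 10 feeding genes listed, 9 were measured. At an unadjusted p under 0.05 there were 1 in SMRT KO against control, 4 in double KO against control and 3 in double KO against SMRT KO. In double KO livers Fasn, the fatty acid synthase, rose against control (log2 fold change 1.05, adjusted p = 0.0184) and Pck1, of glucose synthesis, fell (-0.68, adjusted p = 0.0039), and both also passed against SMRT KO livers, with 1.08 and -0.76. Fasn had 11.59, 11.26 and 11.56 in control and 12.57, 12.60 and 12.38 in double KO livers. Ppargc1a (log2 fold change -0.94, adjusted p = 0.16) and Srebf1 (0.62, adjusted p = 0.23) did not pass in double KO against control, though their values did not overlap. Igfbp1, a gene raised in fasting, had 10.17, 10.22 and 9.45 in control, 10.41, 8.78 and 10.35 in SMRT KO and 10.08, 10.78 and 10.04 in double KO livers, with double KO replicate 2 the highest. Over the 9 feeding genes, control replicate 1 was the highest control for 4 and the lowest for 0, and double KO replicate 2 was the highest of its group for 4 and the lowest for 2. The part of time of day and of feeding in these results was not tested.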

How the data were processed

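Liver RNA (200 ng per mouse) was amplified, labelled with biotin and hybridised to Affymetrix whole-transcript arrays. The deposited table holds log2 expression values; RMA is the 1 tool named in the submitters' processing notes, without a version. RMA corrects background, quantile-normalizes arrays together and summarises each probe set, so a shift shared by most genes would not be seen. Values are log2 intensities of different probes, so levels were not compared between genes. Arrays have no read depth, and the number of mice limits precision.

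Of 41345 probe sets, the platform annotation gave 23521 exactly 1 symbol and 1814 several. The brightest probe set (mean of 9 arrays) was kept per gene, which left 22180 genes. Of those 23521 probe sets, 23328 had an Entrez identifier in the RefSeq gene table (GRCm38.p6). Groups came from sample titles, and 0 value columns were left over.

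The test was limma's moderated test, two-sided, from limma 3.58.1 under R 4.3.3, in a model of all 9 arrays with no block and 6 residual degrees of freedom, with Benjamini-Hochberg adjustment over all genes within each of 3 comparisons; adjusted p under 0.05 was called. Errors are the model's standard errors and 95% intervals, or SDs over 3 mice. An exact permutation test of 3 mice against 3 cannot go below p = 0.1 and was not used. The steps were tested on simulated data. Alternatives were cyclic loess, median centring, array weights, a fit of 2 groups, a replicate block, the mean of probe sets, leaving out dim genes, an intensity trend and leaving out each mouse.

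Members are always named. Of the other pathway genes, Srebf2, Insig1 and any gene called are named, with further ones, and the clock, feeding and marker genes printed, picked after their values were seen. The 8 genes most like the pathway level are named in each way of measuring it. The members and lists were chosen with earlier results of these data known. Some listed genes, and checks of the deleted genes, are not reported here.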

Additional observations from a re-analysis of the deposited data

How the results depend on the processing

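The members called in SMRT KO against control were 0 under all 17 alternatives. In double KO against control the count was 1 in place of 0 with cyclic loess, without dim genes and with an intensity trend (0 to 1 over the fits without 1 mouse). In double KO against SMRT KO it was 0 in place of 1 with the 2 groups only (0 to 1 without 1 mouse). In each case the gene was Tm7sf2. Other pathway genes called, 2 in both comparisons with double KO livers, were 1 in each with the 2 groups only (0 to 3 and 0 to 2 without 1 mouse). Genes called over the whole table were 1 in SMRT KO against control (0 with 2 groups, 2 without dim genes, 0 to 23 without 1 mouse), 187 in double KO against control (285 with array weights, 109 with 2 groups, 61 to 179) and 263 in double KO against SMRT KO (124 with 2 groups, 101 to 234). Fits with fewer mice have fewer degrees of freedom; for the other settings the cause was not tested.

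The titles give every group replicates 1 to 3, and no label says that a number is shared. Deviations of same-numbered livers from their group means correlated at -0.085 to 0.12, over 0.1 in 1 of 9 pairs. Those of differently numbered livers correlated at -0.15 to 0.16. With 3 livers a group, these correlations cannot decide whether the numbers pair the mice. With the replicate block, the members called were 1 in double KO against control (Tm7sf2, adjusted p = 0.0391), the other pathway genes called were 0 in both comparisons with double KO livers (Insig2 and Abcg5 each at adjusted p = 0.0613 against control and 0.0757 against SMRT KO), and 2 genes were called in SMRT KO against control.

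Of 714 values of single genes under alternatives, 645 kept direction and call, 35 lost and 5 gained a call, and 29 changed sign; in those 29 the gene passed the test neither before nor after. Sqle in double KO against control was -0.019 with array weights and -0.19 to 0.17 without 1 mouse. The other ranges without 1 mouse that cross 0 were, in SMRT KO against control, -0.30 to 0.099 for Fdps, -0.49 to 0.00042 for Sqle, -0.20 to 0.12 for Lss, -0.33 to 0.13 for Cyp51, -0.18 to 0.058 for Dhcr7, -0.0026 to 0.089 for Insig1, -0.039 to 0.20 for Insig2 and -0.041 to 0.096 for Abcg5. In double KO against control they were -0.14 to 0.24 for Hmgcs1, -0.072 to 0.33 for Fdps, -0.052 to 0.26 for Fdft1, -0.23 to 0.12 for Cyp51 and -0.15 to 0.024 for Srebf2. In double KO against SMRT KO they were -0.14 to 0.27 for Cyp51, -0.031 to 0.11 for Srebf2 and -0.0048 to 0.20 for Insig1. Signal over background was not measured in the deposited values; all 10 members were brighter than the median gene.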
